A study of Mus musculus with 6 samples.

Results

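Transcripts of the muscle basement membrane and its laminin receptor were followed in RNA of mouse muscle. The 10 genes were the laminin chain genes Lama2, Lama4, Lama5, Lamb1, Lamb2 and Lamc1, the nidogen genes Nid1 and Nid2, the perlecan gene Hspg2 and the integrin alpha 7 gene Itga7, out of 20869 genes and transcripts that were measured well enough to be tested. They were chosen by name, as the non-control probes whose RefSeq accession belongs to 1 of these genes, which gave 14 probes. All 14 probes were well above background on all 6 arrays, so no gene entered through 1 group alone. The study put RNA of 3 groups on Agilent 1-colour arrays, with 2 arrays per group. B10_tap were C57BL/10 mice on tap water, MDX_tap were MDX mice on tap water, and MDX_JJ101 were MDX mice given JJ101, a bioceramic water by its label. MDX mice are deficient in dystrophin, and both MDX groups share that defect. The water was given for 10 months in all groups, and age and sex are not given in the sources used here. The labels number the replicates without saying that they were separate animals, so the p-values measure only the spread between these samples, which may be technical.

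The basement membrane is a thin sheet of matrix around each muscle fibre, capillary and nerve. Laminins are its organisers, cross-shaped trimers of an alpha, a beta and a gamma chain. The alpha 2 chain with beta 1 and gamma 1 is the main laminin of adult muscle fibres, while chains alpha 4 and alpha 5 are typical of vessel walls and of developing muscle, and beta 2 is enriched at the neuromuscular junction. Nidogens and perlecan tie the laminin sheet to the type IV collagen network. On the fibre, laminin is held by dystroglycan, which dystrophin anchors inside the cell, and in parallel by the integrin of the alpha 7 and beta 1 chains. Loss of Lama2, of Itga7 or of the enzymes that glycosylate dystroglycan causes muscular dystrophy.

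The labels name the tissue as gastrocnemius, a calf muscle, but 7 of 8 heart muscle markers, among them Myh6, Nppa, Nkx2-5 and Gata4, were well above background on all 6 arrays. Of 9 skeletal muscle markers, 2 were well above background on all arrays and Myod1 and Myog on none. Myh4, a myosin of fast limb fibres, averaged 2.45 on the log2 scale in B10_tap and 2.22 in MDX_tap, but -5.47 in MDX_JJ101. It was well above background on 4 of the 6 arrays, so -5.47 is a value near background and not a measured level. The data thus go against the label, the samples are called muscle here, and the part of heart RNA in the laminin values was not tested. All 6 arrays lay on 1 slide, with both MDX_JJ101 arrays in row 2 and the other 4 arrays in row 1, so slide row and JJ101 cannot be told apart. B10_tap lay in columns 1 and 2 and both MDX groups in columns 3 and 4. The share of 59305 spots well above background was 51.4% to 51.6% in B10_tap, 48.1% to 49.6% in MDX_tap and 42.5% to 43.8% in MDX_JJ101, and its part in the differences was not tested.

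Promoter sequences from RefSeq on the GRCm38.p6 build were at hand for 6 of the 10 genes, and those of 5 genes whose transcripts differed between the MDX groups are shown, since these genes moved in opposite directions. Each is the stretch of 250 bases before the annotated start, printed 5′ to 3′ on the gene's strand. Capitals mark the GC box, GGGCGG, found on either strand. The first 2 sequences belong to genes that rose in MDX_JJ101 against MDX_tap and the others to genes that fell.

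Lama5, chr2:180225860-180226109, minus strand: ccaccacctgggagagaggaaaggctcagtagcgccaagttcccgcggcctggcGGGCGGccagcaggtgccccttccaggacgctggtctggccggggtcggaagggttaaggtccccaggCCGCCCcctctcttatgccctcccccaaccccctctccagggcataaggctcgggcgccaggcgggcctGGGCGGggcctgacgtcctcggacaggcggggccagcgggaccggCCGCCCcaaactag

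Lamb2, chr9:108479612-108479861, plus strand: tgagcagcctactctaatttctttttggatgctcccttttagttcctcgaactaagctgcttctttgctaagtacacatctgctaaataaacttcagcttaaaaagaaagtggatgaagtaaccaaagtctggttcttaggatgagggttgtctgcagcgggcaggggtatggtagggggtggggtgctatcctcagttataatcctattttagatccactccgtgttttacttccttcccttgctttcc

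Lama2, chr10:27616943-27617192, minus strand: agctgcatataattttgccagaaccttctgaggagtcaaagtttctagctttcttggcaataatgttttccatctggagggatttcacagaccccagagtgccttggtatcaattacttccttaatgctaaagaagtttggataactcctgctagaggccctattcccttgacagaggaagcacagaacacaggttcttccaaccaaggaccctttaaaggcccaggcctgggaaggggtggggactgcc

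Lamb1, chr12:31265043-31265292, plus strand: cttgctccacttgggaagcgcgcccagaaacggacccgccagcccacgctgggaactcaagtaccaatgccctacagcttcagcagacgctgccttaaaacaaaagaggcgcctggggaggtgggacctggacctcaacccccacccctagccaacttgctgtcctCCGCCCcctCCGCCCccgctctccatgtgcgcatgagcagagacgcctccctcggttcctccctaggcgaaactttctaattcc

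Nid1, chr13:13437352-13437601, plus strand: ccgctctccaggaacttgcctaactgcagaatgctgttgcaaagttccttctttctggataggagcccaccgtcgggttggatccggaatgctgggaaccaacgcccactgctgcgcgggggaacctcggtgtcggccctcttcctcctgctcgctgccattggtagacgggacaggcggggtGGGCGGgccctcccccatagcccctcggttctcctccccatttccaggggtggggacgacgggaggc

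The genes that rose together did not share these features. The Lama5 window had a GC content of 72.4%, 19 CpG dinucleotides and 4 GC boxes, whereas that of Lamb2 had a GC content of 43.6%, 3 CpG dinucleotides and 0 GC boxes. Among the genes that fell, Lama2 had 47.2% GC and 0 CpG dinucleotides, Lamb1 had 62.0% and 14, and Nid1 had 64.4% and 16. Their GC boxes numbered 0 in Lama2, 2 in Lamb1 and 1 in Nid1. Over 32851 promoters of the same length the median was 52.4% GC and 6 CpG dinucleotides, and 32.7% held a GC box. The letters TATAAA, searched on both strands, were in none of these 5 windows and in 12.4% of all promoters. The letters CANNTG, which read the same on both strands and can overlap the other motifs, occurred 2 times in Lama5 and Lamb1, 1 time in Lamb2 and Lama2 and 0 times in Nid1, and were present in 66.2% of all promoters. A match describes the letters only.

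The first comparison asked how MDX muscle differed from C57BL/10 muscle with both groups on tap water. None of the 10 genes passed. Nid1 stood out by size, with a level 1.51-fold higher in MDX_tap. At an adjusted p under 0.05 by limma (Benjamini-Hochberg, all genes tested), 0 of the 10 genes were called and 1 had an unadjusted p under 0.05. Of all 20869 genes 0.0240% were called in this comparison and 4383 had an unadjusted p under 0.05. The median difference of the 10 genes was 0.16 on the log2 scale, beside -0.06 over all genes tested, and 8 of the 10 differences were positive. The arrays of the groups did not overlap for 7 of the 10 genes, a state that held for 61.4% of all genes.

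Levels are log2 signals from which the 75th percentile of that array was subtracted, and each gene is compared with itself across arrays. For Nid1, which encodes the nidogen that bridges laminin gamma 1 and type IV collagen, the levels were 3.79 and 3.72 on the B10_tap arrays, 4.25 and 4.44 on the MDX_tap arrays, and 3.58 and 3.31 on the MDX_JJ101 arrays. Both MDX_tap arrays lay above every other array. The difference between MDX_tap and B10_tap was 0.59 (SE 0.14, adjusted p = 0.131 by limma), with a 95% interval from 0.24 to 0.94. The adjusted p of Nid1 stayed above the threshold under all 17 alternatives, with 0.0581 as the lowest. In every comparison, leaving out an array of the group not compared repeats the fit of the 2 groups alone. Counts of alternatives therefore include repeats of the same fit. The other 2 Nid1 probes gave differences of 0.43 (SE 0.15) and 0.32 (SE 0.18), in the same direction.

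For Lama2, the alpha chain of the main muscle laminin, the levels were 4.28 and 4.05 on the B10_tap arrays, 4.39 and 4.48 on the MDX_tap arrays, and 4.03 and 3.91 on the MDX_JJ101 arrays. The MDX_tap arrays were the highest, by a small margin over the first B10_tap array. MDX_tap differed from B10_tap by 0.27 (SE 0.12, adjusted p = 0.289 by limma), and the second Lama2 probe gave 0.31 (SE 0.12). The beta and gamma partners of this trimer differed by similar amounts, Lamb1 by 0.20 (SE 0.10, adjusted p = 0.319) and Lamc1 by 0.24 (SE 0.11, adjusted p = 0.294). Neither passed. The remaining differences were 0.17 for Nid2, 0.15 for Hspg2, 0.05 for Itga7, 0.01 for Lama4, -0.06 for Lamb2 and -0.15 for Lama5, with adjusted p between 0.403 and 0.972. The 95% interval of Itga7 ran from -0.29 to 0.39, so a rise or fall within that range was not excluded with 2 arrays per group.

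**Figure D1:**
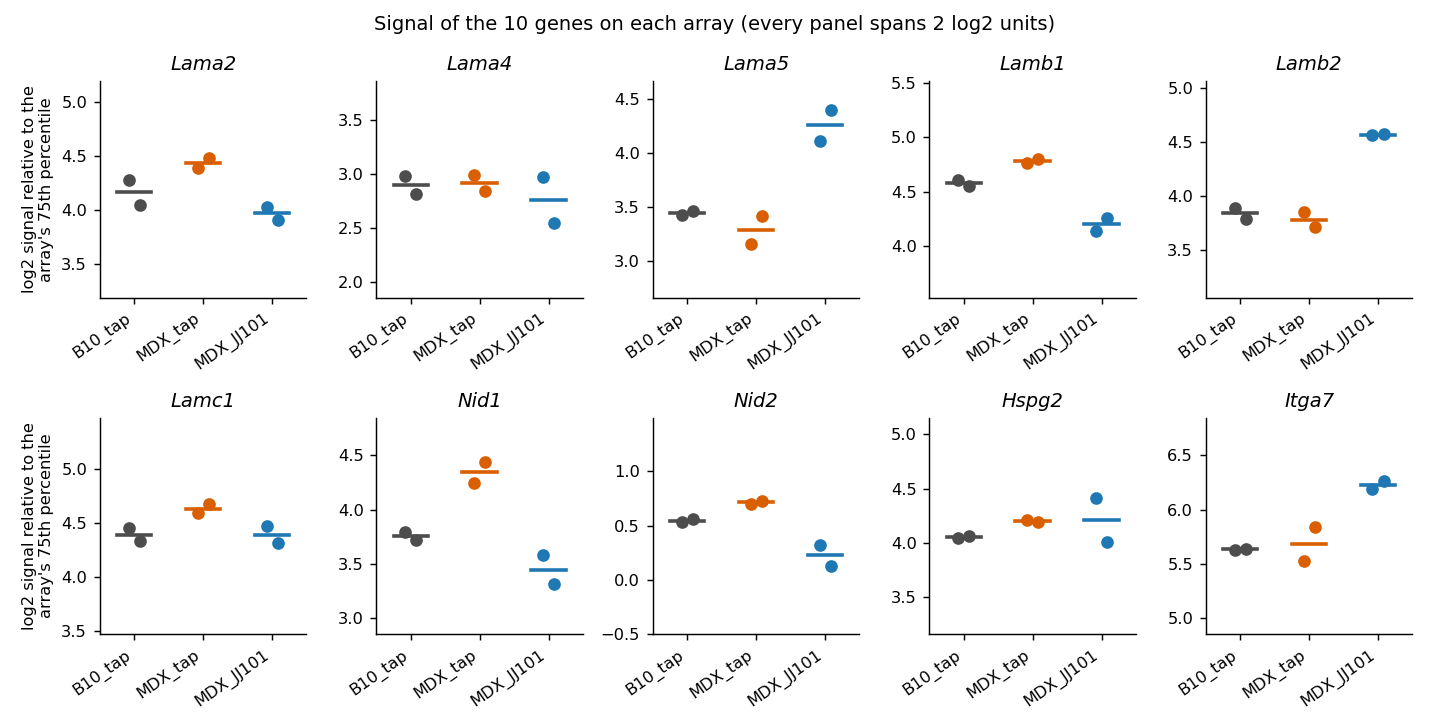
Log2 signal relative to the array's 75th percentile (vertical axis) for the 10 genes on each of the 6 arrays; points are arrays, bars are group means, and every panel spans 2 log2 units. Lama5, Lamb2 and Itga7 were higher on both MDX_JJ101 arrays than on all other arrays, and Lamb1, Lama2, Nid1 and Nid2 lower.

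The second comparison asked how MDX muscle on JJ101 differed from MDX muscle on tap water. The family divided. Lama5, Lamb2 and Itga7 rose in MDX_JJ101, by 1.95-fold, 1.73-fold and 1.46-fold, while Nid1, Lamb1, Nid2 and Lama2 fell, being 1.87-fold, 1.50-fold, 1.41-fold and 1.38-fold lower. Lama4, Lamc1 and Hspg2 did not pass. In all, 7 of the 10 genes were called by limma, beside 36.1% of all genes. In the upward direction it was 3 of 10 beside 19.9% of all genes, and in the downward direction 4 of 10 beside 16.1%. The median difference of the 10 genes was -0.20, beside 0.00086 over all genes tested. The arrays of the 2 groups did not overlap for 8 of the 10 genes, against 72.7% of all genes, a share near the background.

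The count of called genes depended on single arrays. Fitting only the 2 groups gave 4 calls, beside 3247 of all 20869 genes, and leaving out a B10_tap array repeats that fit. Leaving out an array of either MDX group leaves a lone array there, and fewer of the 10 genes were called each time. Over all genes fewer were called too, except without MDX_JJ101 replicate 1. The list counts given below for such fits have the same limit. Blocking on slide column left 0 (limma, smallest adjusted p over all genes 0.0578, with 8857 genes at an unadjusted p under 0.05). Scaling the arrays on 7 spike-in probes moved the median of all genes to -0.43, and 78 of the 3771 genes called there were higher. Of the 10 genes 1, Nid1, was then called. Under this scaling limma gave each of the 10 genes an SE of 0.40 in MDX_tap against B10_tap, where the reported fit gave 0.10 to 0.17. The spread of single genes was thus lost, and p-values with spike-in scaling are not comparable with the others. In none of these settings did Lama5, Lamb2 or Itga7 turn negative or Nid1, Lamb1, Nid2 or Lama2 turn positive. Without a filter on dim probes the median of all genes was 0.26 and 10489 of 13640 calls were higher.

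Lama5 encodes the alpha 5 chain of laminins in vessel walls and epithelial basement membranes. Its levels were 3.43 and 3.46 on the B10_tap arrays, 3.16 and 3.42 on the MDX_tap arrays, and 4.11 and 4.40 on the MDX_JJ101 arrays. Both MDX_JJ101 arrays lay above the 4 others. The difference between MDX_JJ101 and MDX_tap was 0.96 (SE 0.15, adjusted p = 0.0139 by limma), and it was 0.53 (adjusted p = 0.396) with spike-in scaling. Over its 18 alternatives the call was kept in 14.

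Lamb2, the beta chain of junctional and vessel wall laminins, followed the same order. It read 3.89 and 3.79 on the B10_tap arrays, 3.85 and 3.71 on the MDX_tap arrays, and 4.56 and 4.57 on the MDX_JJ101 arrays. The 2 tap water groups overlapped and MDX_JJ101 lay above both. MDX_JJ101 exceeded MDX_tap by 0.79 (SE 0.10, adjusted p = 0.013 by limma), and by 0.35 (adjusted p = 0.606) with spike-in scaling. The call was kept in 15 of 18 alternatives.

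Itga7, the receptor subunit, had levels of 5.63 and 5.64 on the B10_tap arrays, 5.53 and 5.84 on the MDX_tap arrays, and 6.19 and 6.26 on the MDX_JJ101 arrays. The MDX_tap arrays lay on either side of the B10_tap arrays, and the MDX_JJ101 arrays above all. Its difference between MDX_JJ101 and MDX_tap was 0.54 (SE 0.13, adjusted p = 0.0336 by limma). The call ended in 9 of 18 alternatives, among them all 6 that left out an array (adjusted p between 0.0519 and 0.106), and the value was 0.11 with spike-in scaling.

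Of the genes that fell, Nid1 had the largest difference, -0.90 (SE 0.14, adjusted p = 0.0138 by limma), and its MDX_JJ101 arrays were also its lowest of all. The 2 dimmer Nid1 probes gave -0.86 (SE 0.15) and -0.58 (SE 0.18), of which the first passed (adjusted p = 0.0183 over all probes) and the other did not (0.0565). Nid2, the second nidogen, read 0.53 and 0.56 on the B10_tap arrays, 0.70 and 0.73 on the MDX_tap arrays, and 0.32 and 0.13 on the MDX_JJ101 arrays. The 3 groups did not overlap, with MDX_JJ101 lowest. Nid2 fell by 0.49 (SE 0.11, adjusted p = 0.0253 by limma), and 10 of 18 alternatives kept the call.

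Lamb1, the beta chain of the main muscle laminin, had levels of 4.61 and 4.55 on the B10_tap arrays, 4.76 and 4.80 on the MDX_tap arrays, and 4.14 and 4.26 on the MDX_JJ101 arrays. Again the groups were apart and MDX_JJ101 was lowest. Lamb1 fell by 0.58 (SE 0.10, adjusted p = 0.0158 by limma), and the call was kept in 14 of 18 alternatives. Lama2 fell by 0.47 (SE 0.12, adjusted p = 0.0396 by limma), close to the threshold, and 7 of 18 alternatives kept that call. Leaving out any single array ended it, with adjusted p between 0.0562 and 0.135. The second Lama2 probe, at 3.46 and 3.57 in MDX_tap and 3.25 and 3.06 in MDX_JJ101, gave -0.36 (SE 0.12, adjusted p = 0.0672 over all probes).

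Of the 3 genes that did not pass, Lamc1, the gamma chain common to these trimers, read 4.45 and 4.33 on the B10_tap arrays, 4.59 and 4.67 on the MDX_tap arrays, and 4.47 and 4.31 on the MDX_JJ101 arrays. Its difference of -0.25 had a 95% interval from -0.53 to 0.04 (adjusted p = 0.141 by limma). Lama4, the alpha chain of capillary laminins, differed by -0.16 with an interval from -0.59 to 0.28, and its MDX_JJ101 arrays were far apart, at 2.97 and 2.55. Hspg2 encodes perlecan, a large heparan sulfate proteoglycan. Its brighter probe differed by 0.01 with an interval from -0.37 to 0.40, with MDX_JJ101 arrays at 4.41 and 4.01. The dimmer Hspg2 probe went the other way in part, with -0.26 and -0.48 on the B10_tap arrays, -0.62 and -0.49 on the MDX_tap arrays, and -0.96 and -0.87 on the MDX_JJ101 arrays. That probe differed by -0.36 (SE 0.13, adjusted p = 0.0796 over all probes) between the MDX groups and by -0.54 (SE 0.13, adjusted p = 0.0315) between MDX_JJ101 and B10_tap, where the brighter probe gave 0.16. The direction of Hspg2 was therefore not settled.

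**Figure D2:**
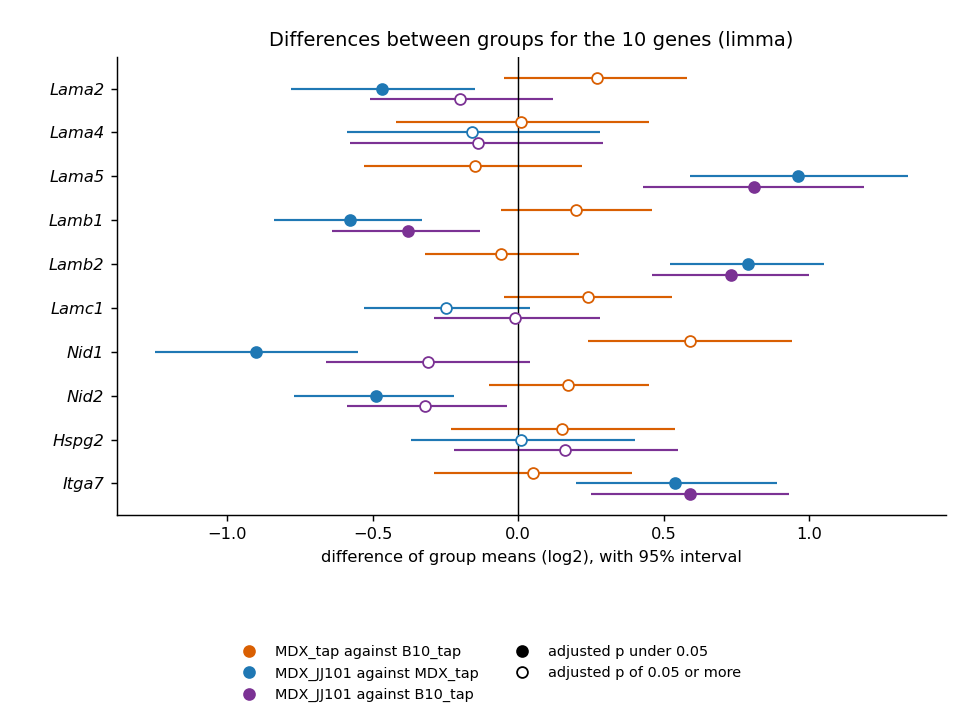
Differences between group means on the log2 scale (horizontal axis) with 95% intervals for the 10 genes in 3 comparisons, each with 2 arrays per group; filled points passed limma's test at an adjusted p under 0.05. MDX_JJ101 against MDX_tap ran from -0.90 for Nid1 to 0.96 for Lama5, and no point of MDX_tap against B10_tap is filled.

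Markers of other cell types moved between the MDX groups too. The counts of markers lower or higher are limma calls (adjusted p under 0.05) in MDX_JJ101 against MDX_tap. Over all genes 16.1% were called lower and 19.9% higher. By sign alone, the difference was above 0 for 0 of the fibroblast, endothelial and red blood cell markers. It was above 0 for all 7 heart markers tested. The summed level of 6 fibroblast markers, as signal relative to the array's 75th percentile, was 430 to 454 in B10_tap, 650 to 701 in MDX_tap and 241 to 356 in MDX_JJ101, with 3 of 6 lower in MDX_JJ101 than in MDX_tap. The sum of 6 endothelial markers was 47.8 to 49.9, 40.9 to 43.7 and 27.5 to 30.4, with 4 of 6 lower. Of the smooth muscle and pericyte markers 3 of 6 were lower, and their sums were 115 to 116, 131 to 154 and 118 to 128. Of 6 macrophage markers 5 were tested, of which 3 were lower and 1 higher, with sums of 81.2 to 86.5, 107 to 131 and 85.4 to 95.7. All of the fibroblast, endothelial and smooth muscle markers were well above background on every array. Of 5 Schwann cell and nerve markers 2 were lower, with sums of 11.6 to 12.6, 16.8 to 18.6 and 10.7 to 13.3. Of 8 heart markers 7 were tested, of which 4 were higher and 0 lower, with sums of 2040 to 2070, 2070 to 2090 and 2590 to 2900. Of 9 skeletal muscle markers 7 were tested, of which 5 were lower and 1 higher, with a median difference of -3.73 and sums of 140, 126 to 143 and 256 to 274. The sums were carried by Acta1 and Ckm, at 5.90 and 5.98 in MDX_tap and 6.65 and 7.34 in MDX_JJ101. Only these 2 were well above background on all arrays, so the median includes values near background. Of 4 adipocyte markers 2 were tested and both were lower, with sums of 0.154 to 0.192, 0.306 to 0.321 and 0.0491 to 0.0744. These 2, Adipoq and Cidec, were well above background on 4 and 3 of the 6 arrays. Their calls and sums therefore include values near background, which are not measured levels. Of 3 red blood cell markers 1 was lower, with sums of 279 to 554, 323 to 370 and 245 to 246. The part of these shifts in the laminin and nidogen values was not tested, and fewer cells of a type cannot be told apart from less RNA per cell.

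Because array scaling shifted all genes together, chains of one class were also set against each other within an array, where scaling cancels. The log2 signal of Lama2 minus that of Lama5 was 0.85 and 0.59 on the B10_tap arrays, 1.22 and 1.07 on the MDX_tap arrays, and -0.08 and -0.49 on the MDX_JJ101 arrays. MDX_JJ101 lay below every other array. From MDX_tap to MDX_JJ101 its mean fell by 1.43, from 1.14 ± 0.11 to -0.29 ± 0.29 (SD, n = 2 each). Lamb1 minus Lamb2, a ratio added after the values were seen, averaged 0.74 ± 0.02 in B10_tap, 1.00 ± 0.13 in MDX_tap and -0.37 ± 0.07 in MDX_JJ101 (SD, n = 2 each). It dropped by 1.37 from MDX_tap to MDX_JJ101. For Lama2 minus Lama4 the groups lay closer, with means of 1.26 ± 0.05, 1.52 ± 0.17 and 1.21 ± 0.21 (SD, n = 2 each), and the MDX_JJ101 arrays overlapped B10_tap. The ratios were given no test, and an exact permutation test of 2 arrays against 2 cannot go below p = 0.333. Under the authors' table the first ratio differed by -1.35 and Lamb1 minus Lamb2 by -1.39 between the MDX groups. A changed ratio shows that the chains changed unequally, not which one moved.

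**Figure D3:**
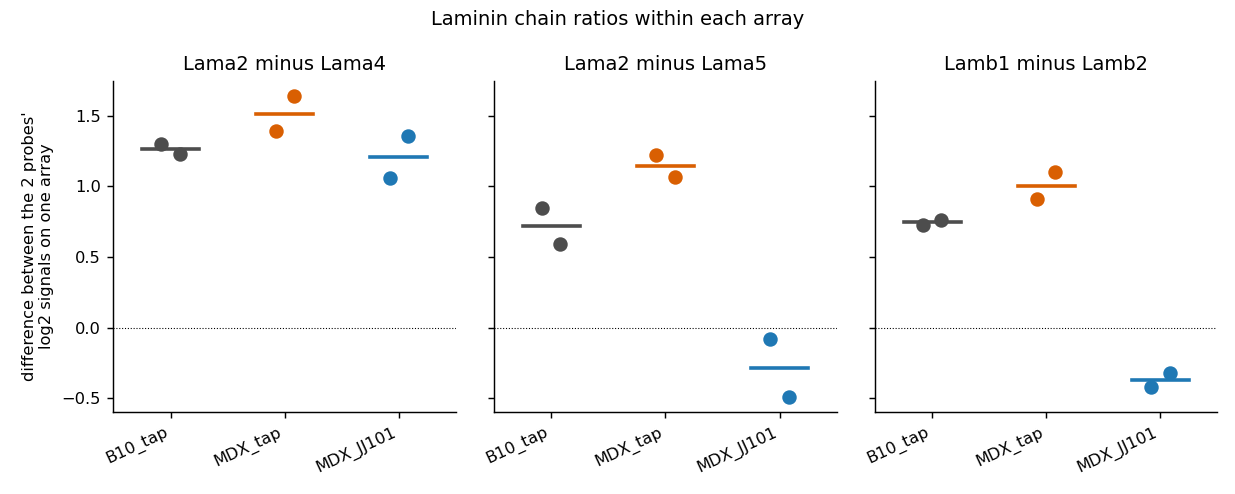
Difference between the log2 signals of 2 laminin chain probes on the same array (vertical axis) in the 3 groups; points are arrays and bars are group means of 2 arrays. Lama2 minus Lama5 and Lamb1 minus Lamb2 were lower on both MDX_JJ101 arrays than on the other 4 arrays.

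The third comparison set MDX_JJ101 against B10_tap and shares its arrays with the other comparisons. Lama5, Lamb2 and Itga7 were higher in MDX_JJ101 and Lamb1 was lower. Lama5 stood at 0.81 (SE 0.15, adjusted p = 0.0184 by limma), Lamb2 at 0.73 (SE 0.10, adjusted p = 0.0128), Itga7 at 0.59 (SE 0.13, adjusted p = 0.0287) and Lamb1 at -0.38 (SE 0.10, adjusted p = 0.0396). Of 17 alternatives, 13 kept the call of Lama5, 14 that of Lamb2, 12 that of Itga7 and 8 that of Lamb1. Thus 4 of the 10 genes were called, 3 higher and 1 lower, beside 33.6% of all genes, 16.2% higher and 17.4% lower. The arrays did not overlap for 7 of the 10 genes, beside 75.3% of all genes. Of the genes that fell between the MDX groups, the other 3 did not pass here, with Nid1 at -0.31 (adjusted p = 0.132), Nid2 at -0.32 (adjusted p = 0.0743) and Lama2 at -0.20 (adjusted p = 0.26). Each of these 3 was called lower in 2 of 17 alternatives. Lamc1 stood at -0.01 with a 95% interval from -0.29 to 0.28. Fewer of the 10 genes were called when any array of these 2 groups was left out, and fewer over all genes too. The count was 0 with spike-in scaling, beside 4448 of 20869 genes. It was 7 with the authors' table and with normexp and quantile normalization, beside 6550 and 6289 genes.

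Across the 3 groups the order of levels therefore took 3 forms. For Lama5, Lamb2 and Itga7 MDX_JJ101 was highest, and the 2 tap water groups did not differ beyond their spread. For Nid1, Nid2, Lamb1 and Lama2 MDX_tap was highest and MDX_JJ101 lowest, with B10_tap between them. Of these steps only that of Lamb1 from B10_tap to MDX_JJ101 passed beside those between the MDX groups. That call of Lamb1 was kept in 8 of 17 alternatives. For Lama4, Hspg2 and Lamc1 no neighbours in the order passed the test.

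**Figure D4:**
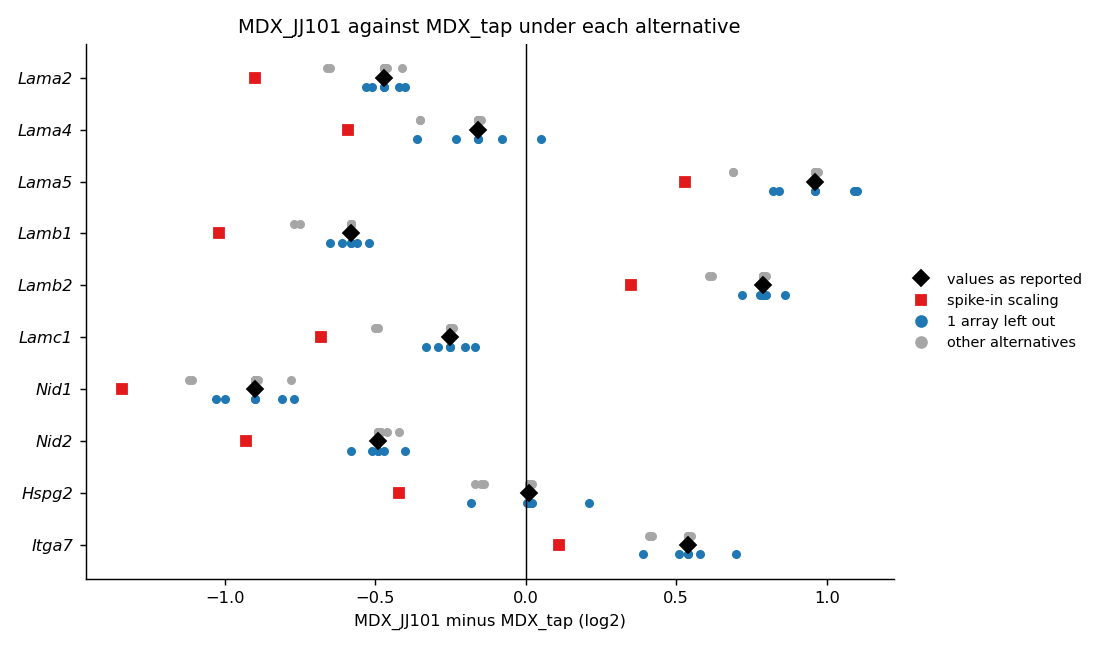
Difference between MDX_JJ101 and MDX_tap on the log2 scale (horizontal axis) for the 10 genes under each processing alternative; black diamonds are the values as reported, red squares spike-in scaling, blue points fits with 1 array left out and grey points the other alternatives. Lama5, Lamb2 and Itga7 stayed above 0 in every alternative shown, and Nid1, Lamb1, Nid2, Lama2 and Lamc1 below 0.

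Other basement membrane components were read from a list of 24 genes, of which 21 were tested and Lama1, Lamc3 and Npnt were not. In MDX_JJ101 against MDX_tap 3 rose, 0 fell and 18 did not pass, with a median of -0.17. Over all genes 19.9% rose and 16.1% fell in this comparison, and the median was 0.00086. Leaving out either B10_tap array, or replicate 2 of either MDX group, gave 0 calls, as did slide column as a block, and leaving out MDX_tap replicate 1 gave 1. Under normexp and under the authors' table the calls, counted in either direction, were 9. Of the 3 that rose in the reported fit, the laminin chain gene Lamb3, best known from epithelia, stood at 0.73 (SE 0.16, adjusted p = 0.0238 by limma). The type IV collagen gene Col4a2, also among those 3, stood at 0.43 (SE 0.11, adjusted p = 0.0358). Lamb3 read 0.65 and 0.69 on the B10_tap arrays, 0.76 and 0.40 on the MDX_tap arrays, and 1.41 and 1.22 on the MDX_JJ101 arrays. With spike-in scaling Col4a2 stood at -0.01. Netrin 4 (Ntn4), which binds laminin gamma chains, stood at -0.51 (SE 0.15, adjusted p = 0.0539). In MDX_tap against B10_tap 0 of 21 passed (limma), and 2 had an unadjusted p under 0.05. The smallest p there was that of Fbln1, the fibulin 1 gene, whose levels were 2.36 and 2.22 on the B10_tap arrays, 3.98 and 4.23 on the MDX_tap arrays, and 3.78 and 3.01 on the MDX_JJ101 arrays. Its difference of 1.81 (SE 0.27, adjusted p = 0.0858) was larger in size than those of the 10 genes in this comparison. Fbln1 passed in 8 of 17 alternatives, with adjusted p between 0.000955 and 0.0477 by limma. Those were spike-in scaling, normexp, the authors' table, a variance trend, probes well above background on all arrays, and the 2 groups alone. The fits without either MDX_JJ101 array passed too, but they repeat the fit of the 2 groups alone. The lowest adjusted p came with spike-in scaling, where limma gave Fbln1 and each of the 10 genes the same SE of 0.40. In the other 9 the adjusted p lay between 0.085 and 0.374. Smoc1 stood at 0.85, Col18a1 at 0.43 and Col4a1 at 0.25. In MDX_JJ101 against B10_tap 3 rose and 0 fell, beside 16.2% and 17.4% of all genes. Fbln1 at 1.11 and Lamb3 at 0.64 were among those that rose, and Col4a2 at 0.36 did not pass.

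A list of 13 genes held laminin receptors and other cell surface partners, among them the collagen receptor genes Ddr1 and Ddr2. Of these 13, 3 rose and 2 fell in MDX_JJ101 against MDX_tap, with a median of -0.22. These counts are near the 19.9% and 16.1% of all genes. Dag1, which encodes both subunits of dystroglycan, read 3.66 and 3.44 on the B10_tap arrays, 3.28 and 3.41 on the MDX_tap arrays, and 4.17 and 4.35 on the MDX_JJ101 arrays. It rose by 0.92 (SE 0.13, adjusted p = 0.0132 by limma). Bcam, a receptor of the laminin alpha 5 chain, read 3.49 and 3.32 on the B10_tap arrays, 3.32 and 3.29 on the MDX_tap arrays, and 3.79 and 4.06 on the MDX_JJ101 arrays, and rose by 0.62 (SE 0.13, adjusted p = 0.0231). The collagen receptor gene Ddr1 rose by 0.42. The genes that fell were Ddr2, a collagen receptor of fibroblasts, at -1.07 (SE 0.14, adjusted p = 0.0129) and the integrin gene Itga1 at -0.85 (SE 0.15, adjusted p = 0.016). Itgb1, the partner chain of integrin alpha 7, stood at -0.46 (adjusted p = 0.0636) and was chosen for mention as that partner after its value was seen. In MDX_tap against B10_tap 0 of 13 passed (limma, 5 at an unadjusted p under 0.05), with a median of 0.29 and the smallest p for Ddr2 at 0.60, Sdc4 at 0.61, Ddr1 at 0.31 and Sdc2 at 0.29. In MDX_JJ101 against B10_tap 4 rose and 1 fell, beside 16.2% and 17.4% of all genes. Ddr1 stood at 0.74, Dag1 at 0.71, Sdc4 at 0.87 and Itga1 at -0.69. The 5 receptor calls between the MDX groups were 0 without MDX_tap replicate 1, 0 without MDX_tap replicate 2, 3 without either B10_tap array, 3 without MDX_JJ101 replicate 2, 9 without MDX_JJ101 replicate 1, 3 with spike-in scaling and 0 with slide column as a block.

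Dystroglycan binds laminin through a sugar chain built by a series of enzymes, and many transcripts of these enzymes were higher in MDX_JJ101. Of 18 genes tested against MDX_tap 11 rose, 1 fell and 6 did not pass, with a median of 0.42, beside 19.9% rising and 16.1% falling over all genes. Of those that rose, 1 was well above background on no array of either MDX group, so no level is compared for it and 10 of 17 genes were measured as higher. Examples were B4gat1, which starts the laminin-binding repeat, at 0.78 (SE 0.09, adjusted p = 0.0128) and the mannosyltransferase gene Pomt1 at 1.01 (SE 0.14, adjusted p = 0.013). B4gat1 read 2.93 and 2.92 on the B10_tap arrays, 2.84 and 2.81 on the MDX_tap arrays, and 3.58 and 3.63 on the MDX_JJ101 arrays. Large2, chosen after its value was seen, was the 1 that fell, by 0.65. Against B10_tap 10 of 18 rose and 1 fell, with B4gat1 at 0.68 and Pomt1 at 0.70. Over all genes 16.2% rose and 17.4% fell there. In MDX_tap against B10_tap 0 of 18 passed (limma, 1 at an unadjusted p under 0.05), with a median of -0.05, and Pomt1 stood at -0.30 and Pomt2 at 0.41. The 12 calls of this list between the MDX groups were 6 without either B10_tap array or without MDX_JJ101 replicate 2, 8 without MDX_JJ101 replicate 1, 2 without MDX_tap replicate 1, 0 without MDX_tap replicate 2, 0 with the slide column as a block, 1 with spike-in scaling and 7 with the authors' table.

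Of 10 genes for the proteins that link integrins to actin, 2 rose in MDX_JJ101 against MDX_tap and 0 fell, with a median of 0.20. The share that rose is near the 19.9% of all genes, and 0 of the 10 were called with slide column as a block, with spike-in scaling, or when any array except MDX_JJ101 replicate 1 was left out. They were the talin gene Tln2 at 0.45 (SE 0.10, adjusted p = 0.0264) and Lims2, which encodes an adaptor of the integrin-linked kinase, at 0.40 (SE 0.11, adjusted p = 0.038). Ilk itself stood at 0.35 and Tln1 at 0.27 and did not pass, and with spike-in scaling Lims2, Ilk and Tln1 stood at -0.03, -0.09 and -0.17. In MDX_tap against B10_tap 0 of 10 passed (limma, 2 at an unadjusted p under 0.05), and Lims2 at -0.47, Lims1 at -0.27, Parva at 0.15 and Vcl at 0.24 had the smallest p. Against B10_tap 1 rose in MDX_JJ101, Tln2 at 0.52, beside 16.2% of all genes. Vcl at 0.48, Tln1 at 0.37 and Ilk at 0.22 did not pass.

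**Figure D5:**
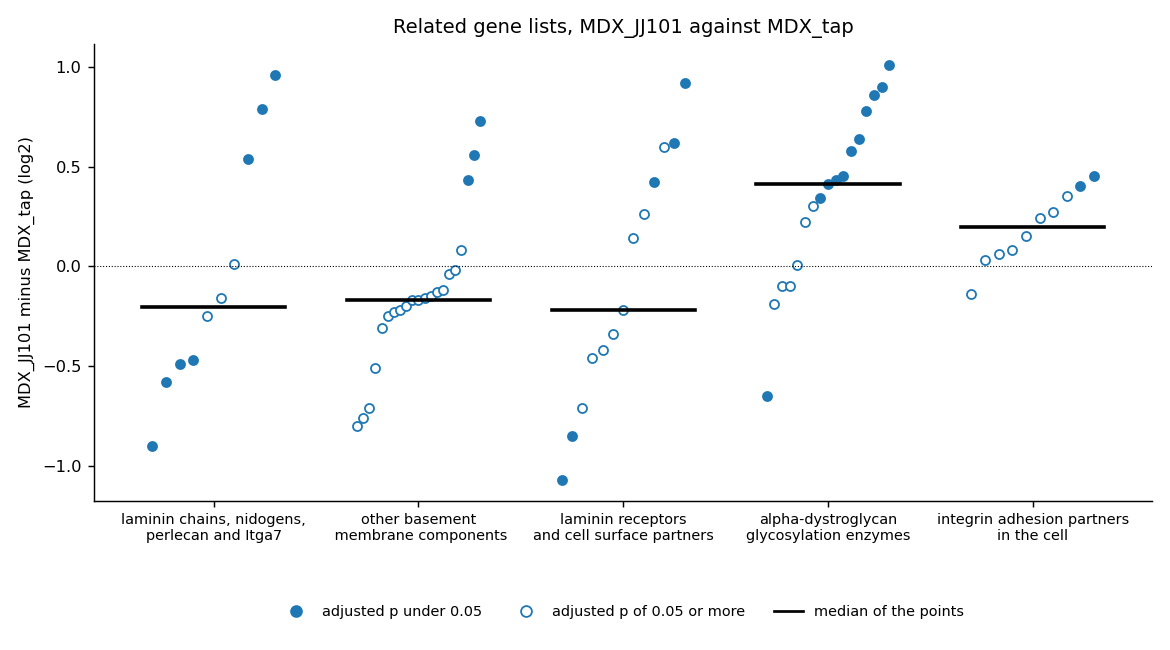
Difference between MDX_JJ101 and MDX_tap on the log2 scale (vertical axis) for each gene of the laminin family and of 4 related lists, without 1 enzyme gene that was well above background in neither group; filled points passed limma's test at an adjusted p under 0.05 and bars are medians. The laminin family spread from -0.90 to 0.96, and 10 of 17 glycosylation enzyme genes were called higher.

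Genes whose levels followed a member most closely were named by Pearson's r over the 6 arrays among 13936 genes with a symbol, as a description, since the arrays fall into 3 groups that many genes separate. For Lama2 they were Tmem165 (r = 0.9996), Zfc3h1 (r = 0.9959), Defb25 (r = 0.9909), Dclk1 (r = 0.9851) and Fam133b (r = 0.9830), and 433 genes had an r above 0.9. For Itga7 they were Prkaa2 (r = 0.9985), Aar2 (r = 0.9972), Ulk2 (r = 0.9963), B4galt7 (r = 0.9952) and Zfp251 (r = 0.9950), with 2007 genes above 0.9.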

How the data were processed

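RNA of 6 muscle samples was hybridised with the dye Cy3, per the labels. Agilent Feature Extraction 11.5.1.1 gave the deposited intensity values, per the submitters' processing notes; the processed signal is background-subtracted and detrended, per the file headers. Other deposited columns are 0 or 1 flags for saturation, outliers and signal well above background. The authors' series table holds log2 values with the rank order of the raw median signal (Spearman correlation of 1 on each array) and was an alternative only; its scale and normalization are not given in the sources used here, and its sorted columns differed by at most 0.0574.

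Processed signals were put on the log2 scale and centred on each array's 75th percentile, without outlier spots. A probe was kept if both arrays of 1 or more groups had it well above background (27258 of 55681, 27656 of which have a RefSeq symbol), with the brightest probe per gene. A limma 3.58.1 model (R 4.3.3) held all 3 groups (3 residual and 2.21 prior degrees of freedom, two-sided, adjusted over all genes); the steps were tested on simulated data. The genes followed, the 4 lists of related genes and the rule for named genes (all members, up to 4 genes with the smallest p per list and comparison, and the 5 most alike to Lama2 and Itga7) were chosen with earlier results of these data known. A few of the genes so chosen are not reported here. The files hold no mean spot signal, so normexp used the median signal. Fits with an array left out kept the same genes, and a lone array is assumed to vary like the other groups. The number of arrays limits the precision.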

Additional observations from a re-analysis of the deposited data

How the results depend on the processing

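For MDX_tap against B10_tap, 0 of the 10 genes were called under each of 17 alternatives, and the median difference stayed between 0.11 and 0.20. Values near 0 changed sign: Lama4 stood at -0.01 with spike-in scaling and between -0.07 and 0.09 with 1 array left out, Hspg2 at -0.02 with the mean over the probes of a gene, Lamb2 between -0.13 and 0.01 and Itga7 between -0.11 and 0.21 with 1 array left out.

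For MDX_JJ101 against MDX_tap the count of called genes, 7, was 1 with spike-in scaling, 0 with the slide column as a block, 4 with only the 2 groups compared and 0 to 5 with 1 array left out. The slide column block leaves fewer residual degrees of freedom, as do the fits with fewer arrays. With spike-in scaling limma gave each of the 10 genes the same SE, 0.40 in MDX_tap against B10_tap, and the cause was not tested. The median was -0.64 with spike-in scaling, -0.38 with normexp and quantile normalization, -0.40 with the authors' table and -0.34 to -0.06 with 1 array left out. Hspg2 stood at -0.42, -0.14 and -0.15 in the first 3 of these and at -0.17 with the mean over probes, and between -0.18 and 0.21 with 1 array left out, where Lama4 ran from -0.36 to 0.05. With spike-in scaling Col4a2 stood at -0.01, Lims2 at -0.03, Ilk at -0.09 and Tln1 at -0.17; with the mean over probes Tln1 stood at -0.0024. Of 180 single-gene values 130 kept their side of the threshold and direction, 42 lost the call, 2 gained it and 6 changed sign.

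For MDX_JJ101 against B10_tap the count, 4, was 0 with spike-in scaling, 7 with normexp and quantile normalization, 7 with the authors' table and 0 to 3 with 1 array left out. The median was -0.54, -0.22 and -0.24 in these 3 settings and -0.17 to 0.07 with 1 array left out. With spike-in scaling Hspg2 stood at -0.30, Col4a2 at -0.10, Tln1 at -0.09 and Ilk at -0.24. Ilk stood at -0.0046 with normexp and at -0.01 with the authors' table, Hspg2 at -0.19 with the mean over probes and from -0.03 to 0.36 with 1 array left out, and Lamc1 at 0.02 with median centring. With 1 array left out Lamc1 ran from -0.09 to 0.07 and Lama4 from -0.35 to 0.06. The cause of these shifts was not tested.

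The replicate numbers did not pair the arrays: deviations of same-numbered arrays correlated at -0.03, -0.06 and 0.16. With the replicate block 0, 6 and 3 of the 10 genes were called in the 3 comparisons. Between the MDX groups the change of Lama2 minus Lama5 ran from -1.63 to -1.23 with 1 array left out and that of Lamb1 minus Lamb2 from -1.47 to -1.28. The 14 probes were well above background on all 6 arrays. Whether the lower share of such spots on the MDX_JJ101 arrays bears on their values was not tested.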
